A study of Arabidopsis thaliana with 20 samples.

Results

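Young rosette leaves of the snrk2.4/snrk2.10 double mutant of Arabidopsis thaliana were compared with those of Col-0 wild type at 25 days after sowing (DAS), before the leaves senesce. The comparison rests on 10 of the 20 libraries of the series, 5 per genotype, taken by genotype and age as the labels give them. The other 10 libraries, from the same genotypes at 45 DAS, entered only where the ages are set side by side. All plants had the Col-0 background, were grown in a chamber in long days and have no treatment in the labels, and rosette leaves were collected. The labels do not name the mutant alleles, do not say how many plants or which leaves made up a sample, and do not say whether replicates were separate plants, so p-values measure only the spread between these samples.

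SnRK2 kinases are plant protein kinases that act in responses to osmotic stress and to the hormone abscisic acid (ABA). In the ABA pathway, PYR/PYL receptors bind ABA and inhibit clade A PP2C phosphatases, which otherwise keep the ABA-activated SnRK2s (SnRK2.2, SnRK2.3 and OST1) switched off. SnRK2.4 and SnRK2.10 belong to another subclass, which is activated by osmotic and salt stress without ABA and which, with B4 Raf kinases, phosphorylates VARICOSE, a scaffold of mRNA decapping. The series asks what these kinases do in leaf ageing and in ABA signalling.

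The assay was 3' RNA sequencing, in which 1 end of each polyadenylated transcript is counted, so counts were not corrected for transcript length and levels are compared between genotypes and not between genes. Levels are given in CPM, the usual scale on which counts are set against the library total, after scaling by the trimmed mean of M values over these 10 libraries. A gene was called when its adjusted p was below 0.05 in edgeR's quasi-likelihood F-test, with the Benjamini-Hochberg adjustment over all 12250 genes tested. Library totals lay between 985639 and 2343212 counts for wild type and between 1414164 and 1991026 for the mutant, and a count of 0 allows up to 3 counts, or 1.31 to 3.07 CPM by library. Plastid transcripts took 6.47% ± 0.60 of counts in wild type and 6.44% ± 0.85 in the mutant (SD, n = 5 per genotype, exact two-sided permutation test, p = 0.944). In bulk leaves, fewer cells of a type and less RNA per cell cannot be told apart.

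Before the results, 3 promoters are shown. They come from the gene list with the most genes called lower in the mutant, the sugar-starvation and dark-inducible genes. Among the promoters of its called genes, they are those that hold the motif TATCCA. Each is the stretch of 250 bases upstream of the gene's annotated start, read 5' to 3' on the gene's own strand from the TAIR10.1 RefSeq genome and annotation, and the capitals mark TATCCA, a motif of sugar-responsive plant promoters, on either strand (TGGATA is its reverse). In DIN6 the capitals CACGTG mark a G-box.
DIN6 (chr3:17441432-17441681, minus strand): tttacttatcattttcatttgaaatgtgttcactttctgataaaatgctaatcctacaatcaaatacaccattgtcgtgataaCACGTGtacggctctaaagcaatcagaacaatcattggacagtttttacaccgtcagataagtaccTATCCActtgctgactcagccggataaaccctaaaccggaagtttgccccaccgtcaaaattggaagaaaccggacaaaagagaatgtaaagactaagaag
TPS10 (chr1:22181741-22181990, minus strand): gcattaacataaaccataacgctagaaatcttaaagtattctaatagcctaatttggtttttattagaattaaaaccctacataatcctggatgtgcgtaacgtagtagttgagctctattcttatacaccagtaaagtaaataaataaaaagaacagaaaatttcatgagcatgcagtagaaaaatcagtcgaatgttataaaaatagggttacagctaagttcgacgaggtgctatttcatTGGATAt
TPS11 (chr2:8108648-8108897, plus strand): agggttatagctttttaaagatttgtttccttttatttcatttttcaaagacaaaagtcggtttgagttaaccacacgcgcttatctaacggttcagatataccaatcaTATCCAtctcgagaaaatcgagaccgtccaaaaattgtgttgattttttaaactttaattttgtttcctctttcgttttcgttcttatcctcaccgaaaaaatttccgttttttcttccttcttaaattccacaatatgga

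TATCCA was found in these 3 of the 11 promoters of sugar-starvation genes called lower. Among all tested genes with a promoter, 1824 of 12038 (15.2%) held it. The share was 20.8% (122 of 587) among genes called lower in the mutant and 12.9% (67 of 521) among genes called higher. The evening element AAATATCT, a motif of clock-regulated promoters, showed the same order, with 7.33% of the lower genes, 3.07% of the higher genes and 5.01% of all tested genes. CGCGTT, the core of the rapid stress response element, was in 5.62% of the lower, 3.45% of the higher and 2.76% of all. The ABRE core ACGTGNC, to which ABA-pathway bZIP factors bind, was in 11.1% of the lower, 7.87% of the higher and 9.72% of all. The G-box CACGTG was in 8.52%, 8.64% and 7.49%. All motifs were searched on both strands, and G-box and ABRE core can overlap. These shares describe letters in a window, and no test was made of them.

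The mutated genes were examined first. SNRK2.4 (AT1G10940) stood at 30.1, 28.9, 37.6, 34.2 and 19.5 CPM in wild type, against 1.31, 4.45, 6.47, 2.67 and 4.46 CPM in the mutant. The genotypes did not overlap, and the transcript fell by 2.98 on the log2 scale (SE 0.25, adjusted p 5.69e-08). SNRK2.4 shares sequence on 1 strand with RECQ4A (AT1G10930), which had 64 counts in these 10 libraries where SNRK2.4 had 292. SNRK2.10 (AT1G60940) was present in every mutant library, with 47.7, 42.9, 48.1, 47.1 and 68.7 CPM in wild type, against 43.8, 34.1, 38.8, 31.0 and 37.2 CPM in the mutant. Mutant replicate 1 lay inside the wild-type range, and the transcript fell by 0.43 (SE 0.14, adjusted p 0.045), a call lost in 8 of the 10 fits that left out 1 library (adjusted p up to 0.11). Counts at the 3' end can come from beyond a mutation, so these levels do not show whether a protein is made.

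**Figure D1:**
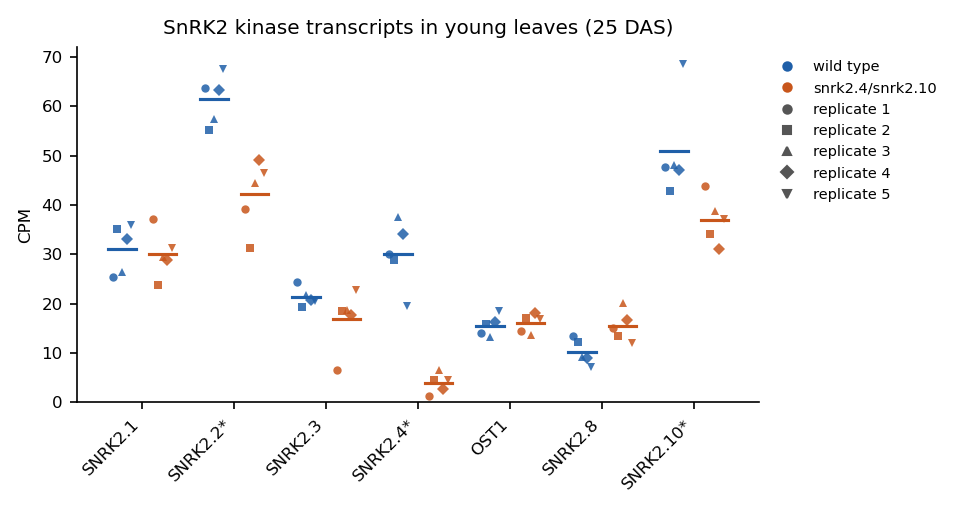
CPM of the 7 tested SnRK2 kinase transcripts in each library at 25 DAS (points, with a symbol per replicate number; bars, group means; an asterisk marks a call). SNRK2.4 is the transcript whose wild-type and mutant points lie furthest apart relative to its level, SNRK2.2 is lower without overlap, and wild-type replicate 5 has the lowest SNRK2.4 and the highest SNRK2.10 value of the wild-type group.

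Of the 10 SnRK2 genes, 7 passed the filter on low counts, and 3 were called lower (percent of all tested genes called lower, 4.87). The third was SNRK2.2 (AT3G50500), an ABA-activated kinase gene outside the mutated pair, at 63.8, 55.2, 57.3, 63.3 and 67.6 CPM in wild type, against 39.2, 31.2, 44.5, 49.2 and 46.6 CPM in the mutant. The ranges did not overlap, and it fell by 0.52 (SE 0.12, adjusted p 0.00761). SNRK2.3 (-0.32, adjusted p 0.384), SNRK2.1 (-0.04, adjusted p 0.925), OST1 (0.07, adjusted p 0.857) and SNRK2.8 (0.52, adjusted p 0.125) did not pass. None of the 12 tested partners in mRNA decay passed in edgeR (adjusted p from 0.540 to 0.989), a list that holds the Raf kinases RAF18, RAF20 and RAF24, the scaffold VCS and the exonuclease XRN4. Their median log2 fold change was -0.02, beside 0.00 over all tested genes.

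Across all genes, 1121 of 12250 were called (9.15%), 525 higher in the mutant (4.29%) and 596 lower (4.87%). A further rule of at least 2-fold left 218 genes, 90 higher and 128 lower, so most differences in young leaves were modest. The median log2 fold change was 0.63 among higher and -0.71 among lower calls. In 717 of the 1121 no mutant library lay within the wild-type range, as was so for 7.94% of all genes in the test. The number of calls depended on the fit. With all 20 libraries and 1 spread estimate for both ages it was 459 (200 higher, 259 lower), with DESeq2's Wald test 781, on counts thinned to the smallest library 768, and without 1 library between 771 and 1277. The higher calls numbered 347 without wild-type replicate 3, 338 without wild-type replicate 4 and 346 without mutant replicate 2. Upper-quartile scaling turned the balance of directions, with 643 higher and 543 lower.

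The rule for named genes picked 69 genes, and 36 of them were not called in the fit of all 20 libraries (adjusted p from 0.0503 to 0.926). These were SNRK2.10, SAG12, ZAT10, AT4G29780, BGAL4, PLA2A, AT2G10940, LP1, ATMS1, AT5G60390, ESM1, LHCB1.4, LHCB1.5, LHCA3, ATCG00220, PSAO, PSBW, ABI1, HAB1, ERD10, KIN2, COR47, LOX2, GDH2, WRKY6, RVE8, PRR7, CYP79B2, FLS1, F3H, NIR1, NIA2, TCH2, EXPA6, EXPA11 and KAT1. With DESeq2's Wald test 14 were not called, all of them among those 36, and with limma voom 8, of which VSP2, DIN6, AT2G15020 and AT1G23205 were called with all 20 libraries. On thinned counts 13 of 62 were not called. Direction stayed the same for each of the 69 under those of these settings in which it was tested.

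The mutant libraries differed among themselves along the same axis as the genotypes. The first principal component of these 10 libraries, with 34.8% of the variance, separated the genotypes, with wild type at -24.8 to -14.9. Mutant replicates 1 and 2 lay farthest from wild type (36.5 and 32.5), replicate 3 was between (19.8) and replicates 4 and 5 were nearest (8.15 and 4.54). The labels give no batch that could be set against this order. The variation of a typical gene between replicates, once counting noise is taken off, was 10.7% for wild type and 13.2% for the mutant.

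**Figure D2:**
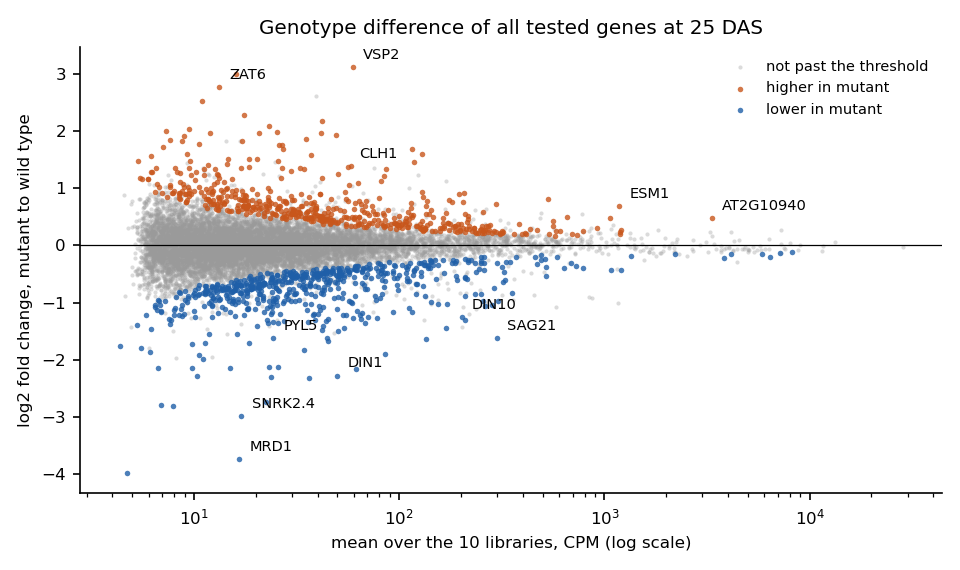
Each point is a tested gene at 25 DAS, with its mean level in CPM over the 10 libraries on a log scale against its log2 fold change, mutant to wild type. Calls (525 higher in orange, 596 lower in blue) were made at all levels, and at the highest levels they rested on small changes (SAG12, which has 2 counts over the wild-type libraries, is not drawn).

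The gene lists were chosen with earlier results of these data known, so their shares of calls are set in part by that choice. Among them, the list with the most genes called lower was that of sugar-starvation and dark-inducible genes. These genes are switched on in plants when sugar runs short, through the kinase SnRK1, and many encode enzymes that break down amino acids to feed respiration. Of 22 listed genes 18 were tested, 11 were called lower (all tested genes, 4.87%) and none higher, and 16 had a negative log2 fold change (median -0.94, all genes 0.00). Their summed level was 1413 to 1601 CPM in wild type, and in the mutant it was 396 to 1092 CPM. In the mutant the sum was 396 and 553 CPM in replicates 1 and 2, 810 CPM in replicate 3, and 1045 and 1092 CPM in replicates 4 and 5, the order of the first principal component.

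DIN1 (SEN1, AT4G35770), a dark-inducible gene that also marks ageing leaves, had 74.6, 74.9, 92.9, 95.8 and 75.8 CPM in wild type, against 4.57, 11.9, 17.96, 23.5 and 24.3 CPM in the mutant. It fell in every mutant library (log2 fold change -2.28, SE 0.28, adjusted p 0.0011). DIN6 (ASN1, AT3G47340), which encodes asparagine synthetase, went from 38.9, 25.8, 42.2, 49.3 and 57.4 CPM to 0.653, 3.71, 9.34, 12.8 and 17.3 CPM (log2 fold change -2.13, SE 0.46, adjusted p 0.0237). No mutant library reached the wild-type range of DIN6, but its call was lost in 4 of the 10 fits that left out 1 library, which were those without replicate 3 (-2.12) and replicate 4 (-2.06) of wild type and those without replicate 2 (-1.96) and replicate 3 (-2.13) of the mutant. TPS10 (AT1G60140), a class II trehalose-phosphate synthase-like gene, stood at 23.8, 24.5, 23.7, 24.1 and 25.6 CPM in wild type, against 5.23, 4.45, 9.34, 11.8 and 9.41 CPM in the mutant. The narrow wild-type range and the low mutant values did not overlap (log2 fold change -1.54, SE 0.20, adjusted p 3.2e-05).

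GDH1 (AT5G18170) and GDH2 (AT5G07440) encode subunits of glutamate dehydrogenase, which releases ammonium from glutamate. GDH1 went from 98.0, 74.0, 83.7, 79.5 and 97.4 CPM to 29.4, 23.7, 38.8, 54.5 and 43.1 CPM (log2 fold change -1.15, SE 0.17, adjusted p 0.000739). GDH2 went from 27.0, 31.5, 25.7, 34.7 and 50.2 CPM to 13.1, 5.94, 11.5, 20.8 and 17.3 CPM (log2 fold change -1.19, SE 0.24, adjusted p 0.00582). Both separated the genotypes completely, and neither lost its call when any 1 library was left out, though GDH2 did in the fit of all 20 libraries (adjusted p 0.161).

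The other 6 called members are named although the rule for named genes did not pick them, after their values were seen. DIN10 (AT5G20250), a raffinose synthase-like gene, had 261, 302, 282, 291 and 286 CPM in wild type, against 73.2, 86.8, 120.0, 144 and 166 CPM in the mutant (log2 fold change -1.25, SE 0.21, adjusted p 0.0081). TPS11 (AT2G18700) had 155, 167, 147, 140.0 and 154 CPM against 36.6, 40.8, 70.4, 94.6 and 107 CPM (log2 fold change -1.10, SE 0.28, adjusted p 0.0464). TPS9 (AT1G23870) had 31.1, 31.5, 30.3, 33.1 and 28.7 CPM against 3.92, 6.68, 11.5, 22.4 and 20.8 CPM (log2 fold change -1.17, SE 0.32, adjusted p 0.0457). In DIN10, TPS9 and TPS11 alike the mutant replicates 1 and 2 were lowest and replicates 4 and 5 highest. MCCA (AT1G03090), of the leucine-degrading 3-methylcrotonyl-CoA carboxylase, fell by 1.01 (SE 0.22, adjusted p 0.00865). The branched-chain keto acid dehydrogenase genes DIN3 (AT3G06850) and DIN4 (AT3G13450) fell by 0.69 (SE 0.18, adjusted p 0.0174) and 0.75 (SE 0.21, adjusted p 0.0244). TPS9, TPS11 and DIN4 lost their calls in 7, 8 and 6 of the 10 fits without 1 library, and DIN3 without wild-type replicate 4 (-0.59) or mutant replicate 4 (-0.60). BZIP1, a transcription factor gene of the same response, had a log2 fold change of -0.55 (adjusted p 0.0514) and IVD, of leucine breakdown, -0.57 (adjusted p 0.0578). Without 1 library the list gave 6 to 11 calls, with 7 without wild-type replicate 3, 6 without wild-type replicate 4 and 7 without mutant replicate 2 or 3. The fit of all 20 libraries also gave 7.

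**Figure D3:**
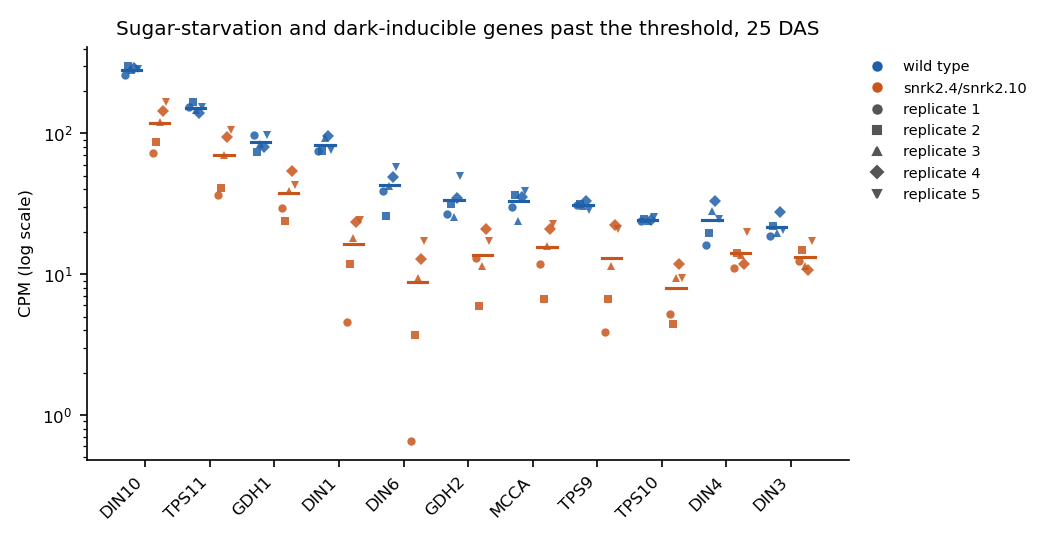
CPM on a log scale of the 11 sugar-starvation and dark-inducible genes called lower, in each library at 25 DAS (symbols, replicate numbers; bars, group means). Mutant points lie below the wild-type points in every gene with the exception of mutant replicate 5 in DIN4, and mutant replicates 1 and 2 are lowest in most genes, as in DIN10 (73.2 and 86.8 CPM).

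The largest single falls included genes outside the gene lists. MRD1 (AT1G53480), named for its response in a methionine-overaccumulating mutant, had 25.4, 32.4, 31.0, 31.4 and 33.8 CPM in wild type, against 0.653, 0.742, 9.34, 0.534 and 0.991 CPM in the mutant. Of the mutant libraries, replicate 3 stood apart, and the others were at 1 or 2 counts (log2 fold change -3.74, SE 0.44, adjusted p 0.00032). Without replicate 3 the log2 fold change was -5.24. AT1G52200, which encodes a PLAC8 family protein, went from 42.0, 30.6, 60.0, 35.9 and 27.7 CPM to 3.27, 2.97, 2.87, 12.3 and 5.95 CPM (log2 fold change -2.74, SE 0.35, adjusted p 0.000746). BGAL4 (AT5G56870), a beta-galactosidase gene, went from 31.6, 42.5, 52.7, 34.7 and 36.9 CPM to 0.653, 6.68, 5.75, 11.8 and 12.9 CPM (log2 fold change -2.30, SE 0.35, adjusted p 0.00279). In each of these genes the highest mutant library was well below the lowest wild-type library.

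AT5G44260, a CCCH zinc finger gene, fell with little spread in the mutant. It had 20.7, 19.3, 30.3, 33.1 and 19.5 CPM in wild type, against 5.23, 2.97, 6.47, 6.41 and 5.95 CPM in the mutant (log2 fold change -2.15, SE 0.24, adjusted p 3.73e-06). AT2G33830, a dormancy/auxin associated gene, followed the order of the sugar-starvation genes, with 63.8, 54.3, 54.0, 66.7 and 65.6 CPM in wild type, against 1.96, 6.68, 11.5, 17.1 and 20.3 CPM in the mutant (log2 fold change -2.31, SE 0.33, adjusted p 0.00306). The same order held in AT3G62550, an adenine nucleotide alpha hydrolase-like gene, with 76.2, 93.2, 115, 109.8 and 116 CPM against 2.61, 8.91, 12.9, 35.3 and 45.1 CPM (log2 fold change -2.16, SE 0.49, adjusted p 0.0304), whose call was lost in 6 of the 10 fits without 1 library. CYP71B23 (AT3G26210), a cytochrome P450 gene, fell by 2.28 (SE 0.43, adjusted p 0.00485) and AT1G49000 by 1.98 (SE 0.36, adjusted p 0.00327; -2.59 without mutant replicate 5). PLA2A (AT2G26560), a patatin-like lipase gene, fell by 2.12 (SE 0.55, adjusted p 0.04996) and lost its call in 9 of the 10 fits.

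In the ABA pathway 1 receptor gene fell, 1 phosphatase gene fell and 1 rose, a gene of ABA release rose and 3 responsive genes fell, beside 4.87% of all tested genes called lower and 4.29% called higher. Of 8 tested receptor genes only PYL5 (AT5G05440) was called, at 28.5, 39.0, 40.9, 42.0 and 32.8 CPM in wild type, against 16.3, 8.16, 14.4, 10.2 and 10.9 CPM in the mutant. No library of one genotype reached the other, and PYL5 fell by 1.62 (SE 0.18, adjusted p 4.04e-06). The other 7 receptor genes did not pass (adjusted p from 0.193 to 0.764), with log2 fold changes from -0.46 for PYL6 to 0.27 for PYL1. Of 5 tested clade A PP2C genes, ABI1 (AT4G26080) fell from 37.8, 31.1, 29.0, 28.0 and 38.9 CPM to 17.63, 17.1, 20.1, 24.0 and 25.8 CPM (log2 fold change -0.62, SE 0.16, adjusted p 0.0133), whereas HAB1 (AT1G72770) rose from 15.0, 13.6, 10.5, 10.08 and 8.2 CPM to 17.0, 17.8, 20.8, 18.7 and 16.3 CPM (log2 fold change 0.60, SE 0.19, adjusted p 0.0441). ABI1 overlaps AT4G26070 on the opposite strand, which had 412 counts against 451 for ABI1, and whether the counting used strand is not given in the sources used here. HAB1 lost its call in 8 of the 10 fits without 1 library.

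Of 8 tested genes of ABA synthesis, release and catabolism, BGLU18 (AT1G52400) was called. It encodes a beta-glucosidase of the endoplasmic reticulum bodies that can release ABA from its glucose ester, and had 53.9, 54.3, 44.8, 54.3 and 47.1 CPM in wild type, against 86.9, 72.7, 187, 118 and 127 CPM in the mutant (log2 fold change 1.21, SE 0.25, adjusted p 0.0174). All mutant libraries exceeded all wild-type ones. The synthesis genes ABA1, ABA2, ABA4 and AAO3 did not pass (log2 fold changes from -0.36 to 0.19), and NCED3 was below the filter.

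Of 12 tested ABA-responsive genes and bZIP factors, 3 cold- and drought-responsive genes were called lower and none higher (median -0.28). ERD10 (AT1G20450), a dehydrin gene, went from 91.2, 68.3, 71.8, 72.8 and 66.6 CPM to 33.3, 52.7, 46.7, 56.6 and 47.1 CPM (log2 fold change -0.65, SE 0.13, adjusted p 0.00178). KIN2 (AT5G15970) went from 54.4, 66.5, 57.3, 68.9 and 48.2 CPM to 27.4, 28.9, 38.1, 42.2 and 52.5 CPM (log2 fold change -0.63, SE 0.15, adjusted p 0.0114), with mutant replicate 5 inside the wild-type range. COR47 (AT1G20440), another dehydrin gene, fell by 0.40 (SE 0.12, adjusted p 0.0374) and lost its call in 8 of the 10 fits without 1 library. In the fit of all 20 libraries none of the 3 was called (adjusted p 0.124 for ERD10, 0.103 for KIN2 and 0.469 for COR47). The bZIP genes ABF2, ABF3 and ABF4 had log2 fold changes of 0.10, -0.27 and -0.30 (adjusted p from 0.487 to 0.846).

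Several genes of glucosinolate synthesis and of jasmonate response rose in the mutant. Jasmonate is a wound and defence hormone, and glucosinolates are sulphur-containing defence compounds of the cabbage family whose synthesis genes it activates. Of 23 tested glucosinolate genes, 10 were called higher (all tested genes, 4.29%) and none lower, and 22 had a positive log2 fold change (median 0.49). Their summed level was 3754 to 4410 CPM in wild type, and in the mutant it was 4990 to 5601 CPM, without overlap.

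The calls covered several steps of the pathway. Of the regulators, MYB28 (AT5G61420) rose by 0.58 (SE 0.17, adjusted p 0.0318). The called members outside the rule for named genes are MYB28, CYP79F1, UGT74C1, SOT17 and TGG2, chosen after their values were seen. CYP79B2 (AT4G39950), which starts indolic glucosinolates from tryptophan, went from 11.4, 8.32, 6.59, 11.2 and 10.2 CPM to 18.3, 12.6, 22.3, 25.6 and 15.9 CPM (log2 fold change 0.99, SE 0.22, adjusted p 0.00481). CYP79F1 (AT1G16410), which makes the aldoximes of aliphatic ones, rose by 0.60 (SE 0.17, adjusted p 0.0457). SUR1 (AT2G20610), the C-S lyase of the core pathway, went from 70.0, 68.7, 64.6, 63.3 and 64.6 CPM to 109.7, 91.3, 89.8, 82.8 and 81.7 CPM (log2 fold change 0.45, SE 0.10, adjusted p 0.00458), without overlap.

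The sulphotransferase gene SOT18 (AT1G74090) went from 38.9, 34.1, 23.1, 24.1 and 19.5 CPM to 66.6, 55.7, 51.0, 51.8 and 45.6 CPM (log2 fold change 0.90, SE 0.16, adjusted p 0.000839). FMOGS-OX1 (AT1G65860), which oxidises the side chain, went from 5.18, 7.00, 7.25, 8.4 and 2.05 CPM to 18.3, 11.1, 16.5, 17.1 and 7.93 CPM (log2 fold change 1.14, SE 0.28, adjusted p 0.0104). SOT18 separated the genotypes, whereas 1 mutant library of FMOGS-OX1 lay inside the wild-type range. UGT74C1 (0.49, adjusted p 0.0398), SOT17 (0.90, adjusted p 0.0424) and TGG2 (0.31, adjusted p 0.0139), a myrosinase gene, were called as well. ESM1 (AT3G14210), which steers glucosinolate breakdown to isothiocyanates, had 1011, 929, 903, 823 and 854 CPM in wild type, against 1791, 1778, 1464, 1162 and 1109 CPM in the mutant (log2 fold change 0.69, SE 0.15, adjusted p 0.0275). MYB28 lost its call in 5, CYP79F1, UGT74C1 and SOT17 in 6 and ESM1 in 7 of the 10 fits without 1 library, and TGG2 without wild-type replicate 5 (0.30). The number of calls in the list ran from 4 (without wild-type replicate 5) to 12 when 1 library was left out. It was 6 without wild-type replicate 3 or mutant replicate 1 and 5 without wild-type replicate 4 or mutant replicate 2, and also 6 with all 20 libraries.

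Of 21 tested jasmonate genes 3 were called higher (all tested genes, 4.29%) and none lower (median 0.32). CLH1 (AT1G19670), a coronatine- and jasmonate-induced chlorophyllase gene, went from 25.4, 32.8, 25.7, 41.5 and 30.7 CPM to 75.8, 81.6, 88.4, 98.3 and 64.4 CPM (log2 fold change 1.38, SE 0.14, adjusted p 1.35e-06). VSP2 (AT5G24770), a vegetative storage protein gene induced by jasmonate, went from 4.66, 17.5, 11.9, 15.7 and 10.2 CPM to 20.9, 85.3, 188, 128 and 112 CPM (log2 fold change 3.11, SE 0.60, adjusted p 0.0162). LOX2 (AT3G45140), the lipoxygenase of jasmonate synthesis, went from 96.4, 179, 116, 175 and 147 CPM to 178, 281, 328, 278 and 281 CPM (log2 fold change 0.91, SE 0.22, adjusted p 0.0371). CLH1 and VSP2 separated the genotypes, while mutant replicate 1 was lowest of the mutant libraries in LOX2 and VSP2 and overlapped wild type in LOX2. LOX2 lost its call in 7 of the 10 fits without 1 library, and the list had 6 calls without mutant replicate 1. MYC2 and MYC4, transcription factor genes of the pathway, had log2 fold changes of 1.11 (adjusted p 0.0967) and 0.81 (adjusted p 0.0591), and the synthesis genes AOS (0.26), AOC2 (-0.33) and OPR3 (-0.10) did not pass. VSP2 has a near-identical neighbour in VSP1, which was below the filter, and how reads that map to several loci were assigned is not given in the sources used here.

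Flavonoid synthesis genes were higher where called. Of 4 tested members of 15, 3 were called higher (all tested genes, 4.29%) and none lower (median 0.76). CHS (AT5G13930), chalcone synthase at the entry of the pathway, went from 206, 232, 199, 226 and 254 CPM to 445, 436, 351, 329 and 287 CPM (log2 fold change 0.73, SE 0.12, adjusted p 0.00435). FLS1 (AT5G08640), flavonol synthase, went from 15.5, 10.9, 11.2, 11.8 and 14.3 CPM to 19.6, 24.5, 20.8, 21.9 and 22.8 CPM (log2 fold change 0.79, SE 0.17, adjusted p 0.00458). Both were separated between genotypes. F3H (AT3G51240) rose by 0.82 (SE 0.25, adjusted p 0.0447) but lost its call in 9 of the 10 fits without 1 library. With all 20 libraries, where more genes pass the filter, the list had 5 calls. The anthocyanin genes DFR, LDOX, PAP1 and TT8 were below the filter.

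Of 8 tested early stress genes of touch, cold and wounding, 2 were called higher (all tested genes, 4.29%) and none lower (median 1.14). ZAT10 (STZ, AT1G27730), a zinc finger repressor gene, went from 21.3, 15.8, 13.8, 8.96 and 15.4 CPM to 46.4, 76.4, 83.3, 105 and 32.7 CPM (log2 fold change 2.17, SE 0.39, adjusted p 0.0111). TCH2 (AT5G37770), a calmodulin-like gene, went from 59.6, 37.2, 31.0, 31.4 and 19.5 CPM to 73.8, 98.0, 84.8, 70.5 and 62.9 CPM (log2 fold change 1.06, SE 0.23, adjusted p 0.0193). Both were higher in every mutant library than in any wild-type library. TCH3 had a log2 fold change of -0.91 (adjusted p 0.118), and the summed level of the list was 1148 to 1942 CPM in wild type, and in the mutant it was 613 to 1542 CPM, so the sum and the median differ in direction. ZAT12, WRKY33 (1.22) and ERF6 (1.25) did not pass (adjusted p from 0.104 to 0.168). TCH2 lost its call without wild-type replicate 3 (1.01) or 4 (1.01). The list had 1 call without either of these libraries, 4 without mutant replicate 1 and 0 with all 20 libraries.

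Among the largest rises outside that list was ZAT6 (AT5G04340), another zinc finger gene, which went from 4.66, 2.63, 4.61, 2.24 and 2.05 CPM to 15.0, 34.1, 24.4, 32.6 and 10.4 CPM (log2 fold change 2.77, SE 0.41, adjusted p 0.00139). AT5G51190, which encodes an integrase-type DNA-binding protein, went from 4.66, 3.06, 2.64, 1.68 and 4.1 CPM to 10.4, 18.6, 22.3, 26.2 and 15.4 CPM (log2 fold change 2.52, SE 0.30, adjusted p 8.78e-06). It overlaps AT5G51180 on the opposite strand, which had 316 counts against 179. AT4G29780, a nuclease gene, rose by 1.97 (SE 0.42, adjusted p 0.0181) and AT1G72910, a TIR domain gene, by 1.96 (SE 0.39, adjusted p 0.0169). AT4G29780 was not called without mutant replicate 2 (1.91) or in the fit of all 20 libraries (adjusted p 0.363).

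Other large rises concerned the cell wall and genes without a known role. AT1G60590, a pectin lyase-like gene, went from 4.15, 12.3, 9.89, 5.6 and 12.3 CPM to 47.0, 40.1, 45.3, 29.4 and 25.8 CPM (log2 fold change 2.09, SE 0.26, adjusted p 9.12e-05). AT1G23205, a pectin methylesterase inhibitor-like gene, went from 8.81, 13.1, 10.5, 8.4 and 8.2 CPM to 70.5, 58.6, 33.8, 27.8 and 14.4 CPM (log2 fold change 1.98, SE 0.48, adjusted p 0.0397). AT2G15020 had 4.15, 5.69, 6.59, 8.4 and 3.07 CPM in wild type, against 49.0, 46.0, 28.7, 15.0 and 9.41 CPM in the mutant (log2 fold change 2.28, SE 0.58, adjusted p 0.0441). In the last pair the mutant replicates 1 and 2 were highest and 5 lowest, and the calls were lost in 7 and 8 of the 10 fits without 1 library. AT1G75945 was at 5.18, 0, 0, 9.52 and 3.07 CPM in wild type, against 23.5, 34.9, 21.6, 37.4 and 25.8 CPM in the mutant (log2 fold change 2.99, SE 0.57, adjusted p 0.0134). No count was found in 2 of the wild-type libraries, and without wild-type replicate 4 the value was 3.83, so the fitted fold is no bound.

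Senescence-associated genes gave 3 calls. Of 20 listed genes 9 were tested, 1 was called higher (all tested genes, 4.29%) and 2 lower (all tested genes, 4.87%). WRKY6 (AT1G62300), a transcription factor gene of senescence and defence, went from 13.0, 7.88, 9.89, 6.72 and 11.3 CPM to 2.61, 0, 3.59, 3.74 and 2.48 CPM (log2 fold change -1.87, SE 0.36, adjusted p 0.00178). SAG21 (AT4G02380), a late embryogenesis abundant gene induced by oxidative stress, went from 567, 362, 511, 395 and 423 CPM to 64.7, 80.9, 118, 240.4 and 217 CPM (log2 fold change -1.63, SE 0.37, adjusted p 0.0323). The genotypes were separate in both, and SAG21 lost its call in 6 of the 10 fits without 1 library. NAP, WRKY53 and SAG14 did not pass (log2 fold changes 0.06, 0.84 and -1.42).

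SAG12 (AT5G45890), a protease gene that marks senescent leaves, was the gene called higher. It had 0, 0, 0, 1 and 1 counts in the young wild-type libraries and 20, 50, 14, 92 and 19 in the young mutant libraries. The ratio of the summed counts, each scaled to library size, was 101 (95% interval 27.7 to 844, counting error only; edgeR adjusted p 0.0136), and the call was lost in the fit of all 20 libraries (adjusted p 0.0578). At 45 DAS the wild-type libraries held 30928 counts of SAG12 and the mutant ones 875, so the 195 counts of the young mutant were 0.613% of the older libraries' sum. Wild-type replicate 5 alone held 22297 of those older counts, and without it the share was 2.05%. A further pair of old-leaf transcripts, picked by name and not by a rule, also had more counts in young mutant than in young wild type. SAG13 (AT2G29350) had 2 counts in young wild type and 22 in young mutant (0.458% of the counts at 45 DAS), and AT1G54575 had 1 and 20 (0.115%). The libraries were pooled as cDNA with barcodes, per the labels, and whether these reads came from other libraries of the pool was not tested.

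No chlorophyll breakdown gene was called in edgeR among 8 tested (median 0.11, adjusted p from 0.0888 to 0.998). In photosynthesis, differences were small. Of 30 tested nuclear genes 3 were called lower (all tested genes, 4.87%) and none higher (median -0.05). LHCB1.4 (AT2G34430), a light-harvesting protein gene, went from 4185, 4171, 4036, 4134 and 4080.0 CPM to 3366, 3503, 3911, 3264 and 3582 CPM (log2 fold change -0.23, SE 0.04, adjusted p 0.00193). LHCB1.5 (AT2G34420) and LHCA3 (AT1G61520) fell by 0.12 (SE 0.04, adjusted p 0.0431) and 0.13 (SE 0.04, adjusted p 0.0345), calls lost under upper-quartile scaling (adjusted p 0.105 and 0.091) and in 8 and 7 of the 10 fits without 1 library. LHCB1 genes are near-identical copies, so counts can be split between them.

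The most abundant genes called changed by less than 1 on the log2 scale. Besides the light-harvesting pair, the highest-level genes called lower were plastid ATCG00220 (-0.21, SE 0.06, adjusted p 0.0366), PSAO (AT1G08380; -0.15, SE 0.04, adjusted p 0.011) and PSBW (AT2G30570; -0.15, SE 0.04, adjusted p 0.0149), all of photosystems. Among those called higher, AT2G10940, of the lipid-transfer and albumin superfamily, went from 2436, 2878, 2986, 2714 and 2945 CPM to 4252, 4476, 4099.5, 3162 and 3446 CPM (log2 fold change 0.48, SE 0.10, adjusted p 0.0233). LP1 (LTP1, AT2G38540), a lipid-transfer protein gene, rose by 0.27 (SE 0.05, adjusted p 0.00287), AT5G60390, an elongation factor gene, by 0.24 (SE 0.06, adjusted p 0.00803) and ATMS1 (AT5G17920), methionine synthase, by 0.20 (SE 0.06, adjusted p 0.0391). ATCG00220 and ATMS1 lost their calls in 8 and 6 of the 10 fits without 1 library. AT2G10940 lost its call without wild-type replicate 4 (0.47) and without replicate 1 (0.44) or 3 (0.46) of the mutant, and PSBW without wild-type replicate 4 (-0.14). None of these 7 passed in the fit of all 20 libraries (adjusted p from 0.217 to 0.867).

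The salicylic acid list had 1 call among 11 tested genes (9.09%, all tested genes 9.15%). This was NPR1 (AT1G64280), which encodes a receptor and coactivator of the defence hormone salicylic acid. It went from 35.8, 32.8, 42.2, 41.5 and 30.7 CPM to 12.4, 10.4, 19.4, 27.3 and 21.8 CPM (log2 fold change -0.97, SE 0.19, adjusted p 0.00269). No libraries overlapped. The synthesis gene ICS1 (-0.48, adjusted p 0.209), EDS1 (-0.90, adjusted p 0.139), PAD4 (-0.43, adjusted p 0.386) and PR5 (-0.46, adjusted p 0.298) did not pass, and 10 of the 11 genes had a negative log2 fold change (median -0.37).

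Of 11 tested genes of nitrate and ammonium assimilation, 3 were called lower (all tested genes, 4.87%) and none higher (median -0.18). NIA2 (AT1G37130), nitrate reductase, went from 766, 746, 683, 677 and 727 CPM to 445, 482, 534, 605 and 674 CPM (log2 fold change -0.39, SE 0.10, adjusted p 0.03). NIR1 (AT2G15620), nitrite reductase, went from 263, 274, 291, 308 and 288 CPM to 244, 239, 232, 205 and 231 CPM (log2 fold change -0.31, SE 0.07, adjusted p 0.00469). UPM1 (AT5G40850), which makes the sirohaem cofactor of nitrite reductase, went from 134, 159, 122, 176 and 152 CPM to 64.7, 92.0, 86.9, 87.1 and 129 CPM (log2 fold change -0.68, SE 0.17, adjusted p 0.0276). In NIA2 the mutant replicates rose in the order of the sugar-starvation genes, from 445 to 674 CPM, and NIA1 stood at -0.84 (adjusted p 0.0514). NIA2 and UPM1 lost their calls in 5 and 6 of the 10 fits without 1 library.

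Of 7 tested iron genes, IMA3 (AT2G30766), which encodes a peptide that signals iron deficiency, was called higher (all tested genes, 4.29%). It went from 4.15, 6.57, 2.64, 6.72 and 3.07 CPM to 17.63, 28.2, 9.34, 16.6 and 24.8 CPM (log2 fold change 1.97, SE 0.30, adjusted p 0.000247) without overlap, while the ferritin genes FER1, FER3 and FER4 and the iron sensor gene BTS did not pass (log2 fold changes from -0.17 to 0.23). Among 11 tested clock genes, 1 was called higher and 1 lower (all tested genes, 4.29% and 4.87%). RVE8 (AT3G09600), a morning activator, rose by 0.54 (SE 0.15, adjusted p 0.022) and PRR7 (AT5G02810), a daytime repressor, fell by 0.44 (SE 0.12, adjusted p 0.0237). RVE8 lost its call in 3 and PRR7 in 4 of the 10 fits without 1 library. LHY (0.67), GRP7 (-0.56), TOC1 (-0.31) and GI (0.07) did not pass, and the hour of sampling is not given in the labels. Among 10 tested expansin genes, which loosen cell walls, 1 was called higher and 1 lower (all tested genes, 4.29% and 4.87%). EXPA6 (AT2G28950) rose by 0.50 (SE 0.12, adjusted p 0.0163) and EXPA11 (AT1G20190) fell by 0.65 (SE 0.21, adjusted p 0.0497). EXPA6 lost its call without wild-type replicate 1 (0.48) or 3 (0.49), and EXPA11 in 8 of the 10 fits. No gene of flowering time (7 tested, adjusted p from 0.162 to 0.809) or phosphate starvation (2 tested, 0.222 and 0.41) was called in edgeR, and no member of the heat-shock list passed the filter.

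Marker genes of leaf cell types were compared as a check of the tissue. The mesophyll markers RBCS1A, RCA, CA1 and CAB3 were abundant in both genotypes (summed 47505 to 50288 CPM in wild type, and in the mutant it was 45538 to 52092 CPM), and the flower and shoot apex markers were absent or near 0 (0.65 to 4.15 CPM summed, 4 of the 6 without a count). Of 6 tested guard cell markers all 6 had a positive log2 fold change (median 0.25), and their sum was 66.3 to 73.1 CPM in wild type, and in the mutant it was 83.1 to 94.6 CPM, without overlap. KAT1 (AT5G46240), a potassium channel gene, was the only 1 of them called (0.64, SE 0.20, adjusted p 0.0431), beside 4.29% of all tested genes called higher. Its call was lost in 8 of the 10 fits without 1 library. Of 5 tested epidermis markers, CER1 (AT1G02205), which acts in the synthesis of wax alkanes, went from 3.11, 8.75, 9.23, 3.92 and 14.3 CPM to 18.9, 33.4, 32.3, 20.8 and 25.8 CPM (log2 fold change 1.83, SE 0.29, adjusted p 0.000758). The epidermis sum was 378 to 437 CPM in wild type, and in the mutant it was 430 to 471 CPM. No phloem (6 tested) or xylem (5 tested) marker was called in edgeR (adjusted p from 0.113 to 0.959). The part of cell composition in the gene results was not tested.

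**Figure D4:**
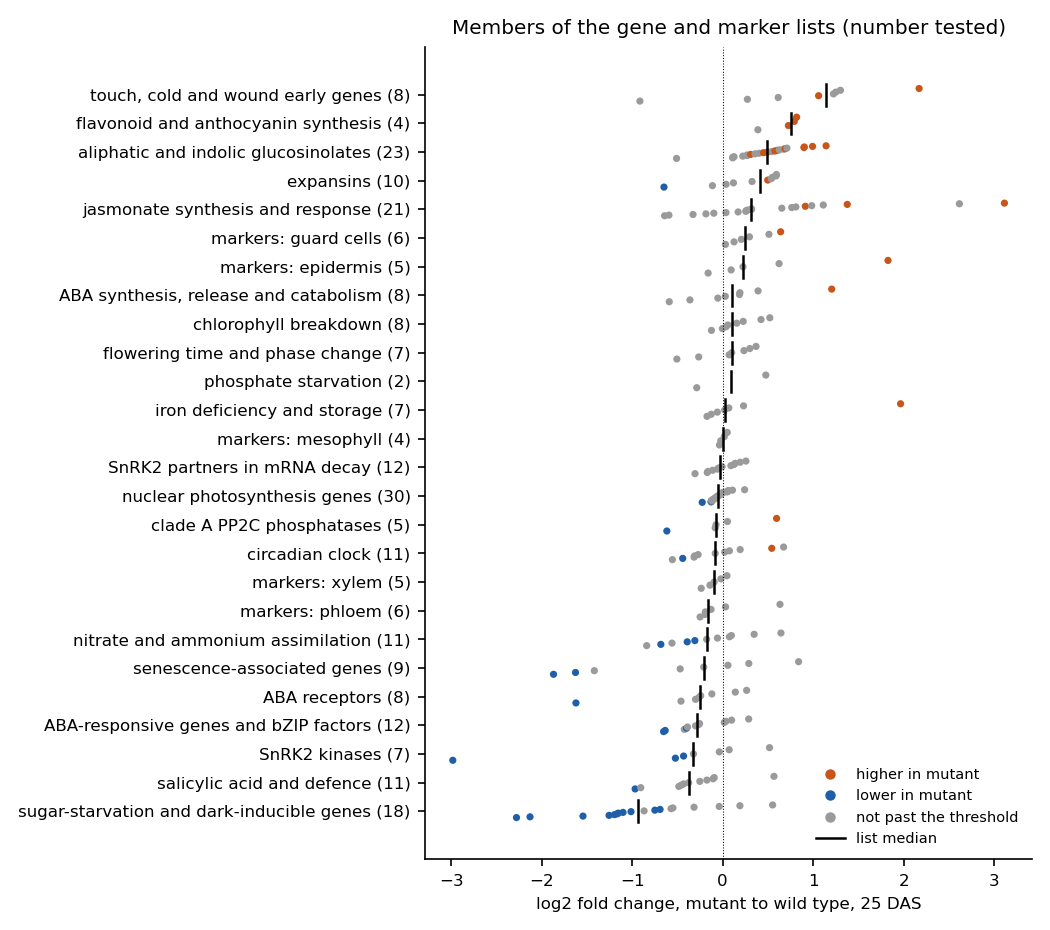
Log2 fold change at 25 DAS, mutant to wild type, of the tested members of each gene and marker list (points; orange, called higher; blue, called lower; grey, not called; black bars, list medians; SAG12 is not drawn). The sugar-starvation list has the lowest median (-0.94) and the early stress, flavonoid and glucosinolate lists have the highest (1.14, 0.76 and 0.49).

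In all, the 22 lists without the marker lists had 357 members, of which 232 passed the filter on low counts and 54 were called (all tested genes, 9.15%), 24 higher and 30 lower. These numbers describe the lists and do not set them apart from other genes.

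Both mutated genes lie on chromosome 1, so the calls were also counted by position. The share of tested genes called was 9.78% on chromosome 1, 8.54% on chromosome 2, 9.05% on chromosome 3, 9.63% on chromosome 4 and 8.85% on chromosome 5. Among the 100 tested genes on each side of SNRK2.4, 21 of 200 were called (10.5%), and 26 of 200 around SNRK2.10 (13.0%). With 200 genes on each side the shares were 8.75% and 14.25% (35 and 57 of 400), beside 9.15% over all genes. MRD1 lay 245 tested genes before SNRK2.10, TPS10 30 before it, AT1G60590 16 before it and WRKY6 47 after it. Whether sequence linked to the mutations differs between the lines was not tested.

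The same genes were then followed to 45 DAS, in a fit of all 20 libraries that includes a test of whether the genotype difference changed with age (the interaction). Of the 1121 genes called in young leaves, 1118 were tested in that fit. At 45 DAS 171 of them were called (15.3%, beside 9.93% of all genes), which is 11.9% of the 1440 calls at that age. For 119 the direction was the same and for 52 it was opposite. The interaction was called for 168 (15.0%, beside 3.21% of all genes), in 164 against the direction seen at 25 DAS. The genes were chosen for a difference in young libraries that also enter the interaction, so both its share and its direction are set in part by that choice. Without 1 library the number ran from 119 to 288, the highest being without wild-type replicate 1 at 45 DAS.

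Levels on the scale of all 20 libraries show how this arose for single genes. GDH1 was at 107 ± 12.8 CPM (wild type) and 48.2 ± 15.2 CPM (mutant) at 25 DAS and at 23.2 ± 6.55 and 40.2 ± 4.23 CPM at 45 DAS (SD, n = 5). Its difference turned from lower to higher (interaction 1.91, SE 0.26, adjusted p 0.000198), and the call held without any 1 of the 20 libraries. DIN1 was at 103 ± 13.0 CPM (wild type) and 20.9 ± 10.5 CPM (mutant) at 25 DAS and at 18.5 ± 8.63 and 18.1 ± 8.9 CPM at 45 DAS (interaction 2.12, SE 0.50, adjusted p 0.0267), a call lost in 1 of the 20 fits. PYL5 was at 45.4 ± 7.2 CPM (wild type) and 15.2 ± 4.13 CPM (mutant) at 25 DAS and at 8.14 ± 2.65 and 9.62 ± 1.9 CPM at 45 DAS (interaction 1.78, SE 0.32, adjusted p 0.00273). In these 3 genes the mean of the old wild type was below that of the young mutant.

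The same held for AT5G44260, at 30.4 ± 8.13 CPM (wild type) and 6.87 ± 1.81 CPM (mutant) at 25 DAS and at 2.93 ± 1.66 and 5.15 ± 0.76 CPM at 45 DAS (interaction 2.96, SE 0.45, adjusted p 0.000751). AT1G52200 was higher in old leaves of both genotypes, at 48.6 ± 15.8 CPM (wild type) and 6.96 ± 5.1 CPM (mutant) at 25 DAS and at 184 ± 49.4 and 127 ± 14.4 CPM at 45 DAS (interaction 2.18, SE 0.40, adjusted p 0.00552). ZAT6 was at 4.02 ± 1.63 CPM (wild type) and 29.7 ± 13.4 CPM (mutant) at 25 DAS and at 328 ± 112 and 288 ± 131 CPM at 45 DAS (interaction -3.01, SE 0.65, adjusted p 0.0184). CHS was at 277 ± 24.8 CPM (wild type) and 471 ± 88.7 CPM (mutant) at 25 DAS and at 2228 ± 309.8 and 1663 ± 500.3 CPM at 45 DAS (interaction -1.19, SE 0.25, adjusted p 0.0122). The glucosinolate list had a median log2 fold change of 0.52 at 25 DAS over the 22 members tested in both fits and 0.48 at 45 DAS, with no interaction called for any of them. For the sugar-starvation list the medians were -0.94 and -0.12, with 3 of 18 interactions called.

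**Figure D5:**
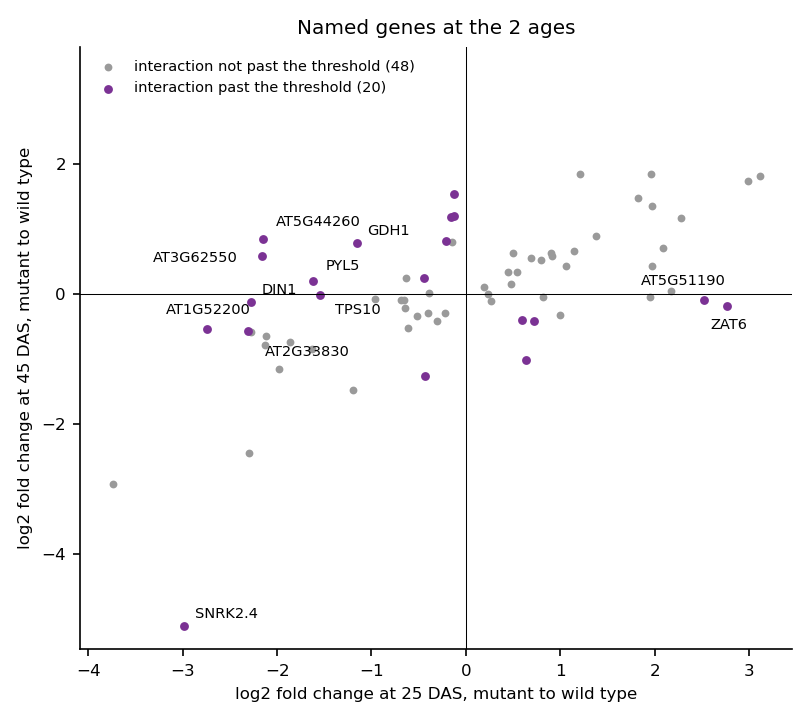
Log2 fold change, mutant to wild type, of the 68 named genes at 25 DAS on the horizontal axis (fit of the 10 young libraries) and at 45 DAS on the vertical axis (fit of all 20 libraries). The 20 genes whose interaction was called are purple, and most of those that were lower at 25 DAS, such as DIN1 and GDH1, lie near or above 0 at 45 DAS, whereas SNRK2.4 lies further below 0 (SAG12 is not drawn).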

How the data were processed

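The authors deposited raw counts per gene, 1 table per library, for 37336 loci, of which 37051 (99.2%) are in the TAIR10.1 reference used for names and promoters. Per the submitters' processing notes, reads were aligned with STAR 2.7.8a to TAIR10. The counter, the use of strand, the collapsing of duplicate reads and the treatment of reads that map to several loci are not given in the sources used here. Intervals and floors cover counting error only.

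Groups came from the genotype and age labels. The 10 libraries at 25 DAS were fitted with edgeR 4.0.16 (filterByExpr, TMM scaling, robust quasi-likelihood F-test, Benjamini-Hochberg adjustment), with SE as the log2 fold change divided by the root of F. Alternatives used DESeq2 1.42.0 and limma 3.58.1, in R 4.3.3. The members and gene lists were chosen with earlier results of these data known. Named genes are SNRK2.4 and SNRK2.10, the 12 largest called changes in each direction among genes that averaged 10 CPM or more and whose genotypes did not overlap, the 5 most abundant calls in each direction, and up to 4 called members per list with the smallest p. On simulated counts for 11945 genes with 200 changed, the same fit called 74.0% of 2-fold and 94.0% of 4-fold changes. Of its calls, 4.5% were of unchanged genes. The changed genes averaged 10 counts or more, so these shares do not hold for genes with fewer. Both genotypes had the same spread in the simulation, whereas in the data it was 10.7% for wild type and 13.2% for the mutant. Each simulated gene was also drawn independently, so the simulation lacks the shared order of the mutant libraries along the first principal component.

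No 2 libraries of a group agreed within counting noise (lowest chi-square per degree of freedom 1.41). Libraries of the same replicate number did not deviate together between the genotypes (same-number correlations -0.20 to 0.09). These values cannot tell whether samples of the same number were collected together.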

Additional observations from a re-analysis of the deposited data

Results flagged for a closer look

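Of 142 groups of libraries examined, 4 held a library far from the other 4, and chance alone gives about 1 in 20. These were SNRK2.10 in wild type (68.7 CPM in replicate 5), MRD1 in the mutant (9.34 CPM in replicate 3), CYP71B23 in wild type (29.7 CPM in replicate 3) and ERD10 in wild type (91.2 CPM in replicate 1).

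For 21 named genes the genotype difference changed between 25 and 45 DAS in the edgeR interaction test over all 20 libraries. Of all genes 3.21% were called in that test. Apart from SNRK2.4 and SNRK2.10, the named genes were picked for a difference in young libraries that also enter the interaction. Their number and direction here are therefore set in part by that choice. Values are the difference at 45 DAS minus that at 25 DAS, on the log2 scale. Among the mutated genes it was -2.18 for SNRK2.4 and -0.86 for SNRK2.10. Among genes that were lower in the young mutant it was 2.18 for AT1G52200, 1.73 for AT2G33830, 2.12 for DIN1, 2.75 for AT3G62550, 2.96 for AT5G44260, 1.78 for PYL5, 1.49 for TPS10, 1.91 for GDH1 and 0.66 for PRR7. For the photosystem genes it was 1.61 for LHCB1.5, 1.29 for LHCA3, 0.98 for ATCG00220 and 1.29 for PSAO.

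Among genes that were higher in the young mutant it was -3.01 for ZAT6, -2.64 for AT5G51190, -1.05 for HAB1, -1.19 for CHS and -1.70 for KAT1. SAG12 had -11.59, a value that rests on 2 counts in the young wild type and is no bound. Leaving out 1 of the 20 libraries ended the call in 8 fits for AT2G33830, 5 for LHCA3, 3 for PRR7, 2 for AT5G51190 and 1 each for SNRK2.10, DIN1 and PSAO.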

How the results depend on the processing

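Against 1121 calls (525 higher, 596 lower), the fit of all 20 libraries gave 459 (200 higher, 259 lower), a 2-fold minimum 218 (90 and 128) and DESeq2's Wald test 343 higher. Without 1 library the higher calls ran from 338 to 613. Under all 20 libraries the list counts were 0 for lower ABA-responsive genes, 7 for lower sugar-starvation genes and 6 for higher glucosinolate genes. They were 5 for higher flavonoid genes and 0 for higher early stress genes. The flavonoid calls did not include FLS1 or F3H, and some were of genes below the filter in the young libraries. Without 1 library the list counts ran from 2 to 6 (jasmonate), 6 to 11 (sugar starvation), 4 to 12 (glucosinolates) and 1 to 4 (early stress). The interaction count ran from 119 to 288. The cause was not tested. Of 69 named genes, none changed direction in an alternative in which it was tested. Of these genes 23 kept their call in every alternative that tested them, and 42 in every fit without 1 library. Only 62 were tested on thinned counts and 68 without organelle genes, and the 2-fold minimum is not among these alternatives. With the replicate number as a block there were 1053 calls, and 18 named genes were not called (edgeR adjusted p from 0.0515 to 0.102). Among them were AT1G75945, AT4G29780, AT1G72910, AT3G62550, BGLU18 and SAG21. Libraries of the same number had correlations of -0.20 to 0.09 between the genotypes, which cannot tell whether samples were collected in pairs. The interaction fits without 1 library, the family counts and the share of SAG12 counts without 1 library were chosen after seeing the data. At the depth of these libraries, a count of 0 allows up to 3.07 CPM.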

Other observations

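Some families, matched by words in the product text and chosen after their values were seen, held several calls, partly of genes also in the lists. A match of words does not show that a gene belongs to the family. Of 13 tested response regulators, 5 were called lower (38.5%, all tested genes 4.87%) and all 13 log2 fold changes were negative (median -0.31), with 3 calls without wild-type replicate 2 or 4 or without mutant replicate 1, and 2 in the fit of all 20 libraries. The 5 are ARR4, ARR5, ARR6, ARR7 and the clock gene PRR7. ARR6, a type-A regulator that dampens the cytokinin response, stood at 95.6 to 106 CPM in wild type and 31.2 to 46.4 CPM in the mutant and fell by 1.36 (SE 0.11, edgeR adjusted p 3.93e-08). Of 30 GDSL-like lipase genes, 10 were called higher (all tested genes, 4.29%) and 1 lower (median 0.39). ESM1, already counted in the glucosinolate list, is among the 10. Higher calls numbered 5 without wild-type replicate 4 or mutant replicate 1, 6 without wild-type replicate 3 or without mutant replicate 2 or 3, and 5 in the fit of all 20 libraries, where none was lower. Of 293 genes whose product text names a ribosomal protein, 31 were called higher (10.6%, all tested genes 4.29%) and 3 lower (median 0.12). The match also took in LOS1 among the higher genes. Higher calls were 16 without wild-type replicate 1 or 3, 17 without wild-type replicate 4 and 20 without mutant replicate 2. They were 1 in the fit of all 20 libraries and 50 under upper-quartile scaling.

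Of 32 tested thioredoxin superfamily genes, 7 were called lower (all tested genes, 4.87%) and none higher. The median over the 32 was -0.12, and 10 of them had a positive log2 fold change. The 7 called genes include the neighbouring AT4G15660, AT4G15670, AT4G15680, AT4G15690 and AT4G15700, with log2 fold changes from -1.21 to -0.92. These are near-identical copies between which counts can be split. Of 24 genes whose product text names a heat shock protein, 6 were called higher (all tested genes, 4.29%) and 1, TTA1, lower (median 0.25). Higher calls numbered 3 without wild-type replicate 5, 2 without mutant replicate 1, 3 without mutant replicate 4 and 3 in the fit of all 20 libraries.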
